A study of Homo sapiens with 7 samples.

Results

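The genes described here are 9 RNA regulators and chromatin proteins, most of them known for high levels before birth and in tumours: the RNA-binding proteins LIN28A and LIN28B, the 3 insulin-like growth factor 2 mRNA-binding proteins IGF2BP1, IGF2BP2 and IGF2BP3, the high mobility group proteins HMGA1 and HMGA2, the ribonuclease DIS3L2 and the ubiquitin ligase TRIM71. They were taken by symbol from the authors' deposited Cuffdiff gene table of 63655 genes, where each had exactly 1 row on a chromosome from 1 to 22 or X, and all 9 had been tested by the authors. Positions given below with a gene ID are the loci printed there. Several genes can share 1 such locus, so it can reach beyond the gene itself. The cells were HEK293, an established human embryonic kidney line, carrying CNBP with a FLAG-HA tag. The labels give 4 CNBP knockdown samples and 3 control knockdown samples. The knockdown titles carry 2 numbers each, which the labels do not explain, so these may not be 4 independent replicates. Neither how the tag was introduced nor whether the line is 1 clone is stated. CNBP is a small nucleic acid-binding protein made mostly of zinc knuckles.

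For every gene the table gives a pooled FPKM (fragments per kilobase of transcript, relative to all mapped fragments) in 2 conditions, headed siRNA and OE. The heading siRNA was taken to mean CNBP knockdown, which the series design names, and the labels do not explain OE. If OE cells overexpressed CNBP, each difference below combines overexpression with knockdown. No value per sample was given, so no value has an SD or an n, and the depth is unknown. Any spread between samples could enter only through the p-values and q-values of the authors' deposited table, and whether it did is not stated. No label says if the samples were separate cultures. A gene is called higher or lower in siRNA where that q-value was under 0.05. CNBP itself was listed at 45.5 FPKM in siRNA, against 579.8 FPKM in OE, and was called lower, its q in the authors' deposited table being 0.00791. VIM, an intermediate filament gene of these cells, was at 412.8 FPKM in siRNA and 398.0 FPKM in OE. The kidney regulator PAX2 was at 3.71 FPKM in siRNA and 3.43 FPKM in OE. Both come from a list of 13 HEK293 markers, in which PAX2 was neither called nor among the 3 of highest mean FPKM. In that list LHX1 was at 1.99 FPKM in siRNA and 1.37 FPKM in OE. Only NEFM was under 1 FPKM in both conditions, at 0.277 FPKM in siRNA and 0.262 FPKM in OE. Of 13 markers of other cell types in the table, 11 were under 1 FPKM in both conditions. The exceptions were EPCAM, at 52.4 FPKM in siRNA and 35.3 FPKM in OE, and TF, at 0.766 FPKM in siRNA and 1.91 FPKM in OE, neither called. The 13 markers summed to 53.6 FPKM in siRNA and 37.9 FPKM in OE, almost all of it EPCAM, with MYH6 and UMOD at 0 in both; what part this has in the results was not tested. FPKM are relative levels, so fewer expressing cells and less RNA per cell cannot be told apart.

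As background, LIN28A and LIN28B bind the precursors of the let-7 microRNAs and block their maturation, in part by recruiting enzymes that add uridines to the precursor, which DIS3L2 then degrades. Mature let-7 in turn lowers LIN28B, HMGA2, the IGF2BP genes and TRIM71 through sites in their 3′ UTRs, so that these genes and let-7 oppose each other during development. LIN28 proteins have a cold shock domain and a pair of CCHC zinc knuckles, the kind of zinc finger that CNBP is built from.

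The let-7 family is shown first, because its seed (bases 2 to 8) is what ties most of these genes together. RefSeq (GRCh38.p14) lists 9 mature 5p forms from 12 loci, and all share 1 seed, GAGGUAG, in capitals here for let-7a from chromosome 9, let-7e from chromosome 19, let-7g from chromosome 3 and miR-98 from chromosome X:
hsa-let-7a-5p: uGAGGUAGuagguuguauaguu
hsa-let-7e-5p: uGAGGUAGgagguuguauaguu
hsa-let-7g-5p: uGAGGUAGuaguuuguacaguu
hsa-miR-98-5p: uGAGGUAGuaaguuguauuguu
LIN28 proteins are known to bind a GGAG element in the terminal loop of these precursors. The letters GGAG, searched on the RNA strand only, occur in 9 of the 12 let-7 family hairpins, and in 43.4% of all 1562 human hairpins in the table, which differ in length. They are in capitals in the let-7g hairpin (GRCh38.p14, chr3:52268278-52268361, minus strand):
MIRLET7G hairpin: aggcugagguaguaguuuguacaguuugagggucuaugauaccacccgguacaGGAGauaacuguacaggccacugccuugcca

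The mRNAs of 8 of the 9 genes carry the complement of that seed in the 3′ UTR. In 1 annotated transcript per gene (GENCODE 29), the sense strand was searched for the 7 bases CTACCTC and for the 8 bases CTACCTCA, which contain them. The 7 bases occurred in 9.71% of 12972 expressed coding genes with such a transcript, and the 8 bases in 3.72%. TRIM71 held 6 matches, 4 of them over 8 bases, in a 3′ UTR of 6015 bases, and was the only 1 of those 12972 genes with 6; no gene held more. LIN28B, IGF2BP1 and HMGA2 held 4 matches each, and LIN28A, IGF2BP2, IGF2BP3 and HMGA1 held 1 each. DIS3L2, whose 3′ UTR is 567 bases long in the transcript used, held 0. Long 3′ UTRs hold more matches: of 637 expressed coding genes with a 3′ UTR within 20% of the length of TRIM71, 29.04% held at least 1, and the same share was 22.7% at the length of LIN28B, 29.7% at that of IGF2BP1 and 14.1% at that of HMGA2. At the lengths of LIN28A, IGF2BP3, IGF2BP2 and HMGA1, each with 1 match, it was 15.98%, 12.4%, 11.3% and 7.92%. A match is a description of the letters and not a measured site.

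The windows of 30 bases around the 8-base matches of TRIM71 and LIN28B, and around the first match of each other gene, show flanks that differ around the match, which is in capitals (8 bases, or 7 in HMGA1). They run 5′ to 3′ along the mRNA, with positions on GRCh38, and all lie in the 3′ UTR.
TRIM71 (chr3:32891972-32892001, plus strand): ttgcttaagtcCTACCTCAtctttattttt
TRIM71 (chr3:32892052-32892081, plus strand): ataatttctatCTACCTCAtaaatctttac
TRIM71 (chr3:32895809-32895838, plus strand): ttgctgagtttCTACCTCActtgtggcaag
TRIM71 (chr3:32895832-32895861, plus strand): tggcaagtcatCTACCTCAtgttagcatct
LIN28B (chr6:105078816-105078845, plus strand): ggttgcaaagtCTACCTCAtgcaagtatag
LIN28B (chr6:105081425-105081454, plus strand): acagcaaaaggCTACCTCAtagttgataca
LIN28A (chr1:26427352-26427381, plus strand): agcctattgaaCTACCTCAtttttgccaat
IGF2BP1 (chr17:49051065-49051094, plus strand): tgcgaagtaaaCTACCTCAaggtatgaagt
IGF2BP2 (chr3:185644209-185644238, minus strand): cacagaagaagCTACCTCAggtgtttttac
IGF2BP3 (chr7:23311784-23311813, minus strand): tttttactcaaCTACCTCAggtattcagta
HMGA2 (chr12:65963302-65963331, plus strand): acgttcgatttCTACCTCAgcagcagttgg
HMGA1 (chr6:34245833-34245862, plus strand): ctgttcacaaaCTACCTCtggacagttgtg

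**Figure D1:**
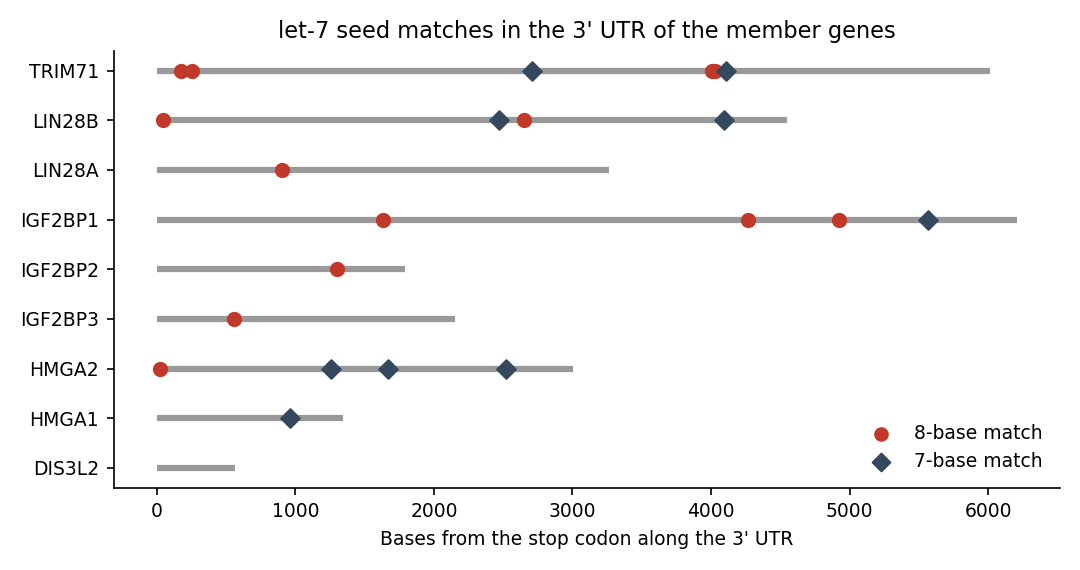
Position of let-7 seed matches along the 3′ UTR of 1 annotated transcript of each gene, in bases from the stop codon; circles are 8-base and diamonds 7-base matches, and the grey bar is the length of the 3′ UTR. TRIM71 has 6 matches, LIN28B, IGF2BP1 and HMGA2 have 4 each, and DIS3L2 has 0.

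TRIM71 was the 1 called gene of the 9. TRIM71 (ENSG00000206557, chromosome 3, 32859510 to 32939318, hg19), a ubiquitin ligase and mRNA repressor of stem cells and early embryos, was at 2.58 FPKM in siRNA and 1.05 FPKM in OE. It was 2.45-fold higher, or 1.29 on the log2 scale, with p = 5e-05 and q = 0.00791 in the authors' deposited table. These are the smallest values that table holds, and 157 tested genes share them. Among all 24822 tested genes 1.35% were called, 0.572% higher and 0.782% lower. The level of TRIM71 was low, above that of only 7.28% of 13023 coding genes whose mean FPKM was 1 or more, here named expressed coding genes. Of these, 1.74% were called, 0.768% higher and 0.968% lower. On the log2(FPKM + 1) scale, which understates changes of low genes, TRIM71 was at 0.80. Of the 500 expressed coding genes nearest to it in mean FPKM (1.56 to 2.12 FPKM), 3, TRIM71 included, were at least as far up, and 0.6% were called higher. The median change of those 500 was -0.17.

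LIN28B and LIN28A, the let-7 blocking pair, had values on opposite sides of 0, and neither was called. LIN28B (ENSG00000187772, chromosome 6, 105404923 to 105531207, hg19), the form known in many tumours, was at 22.96 FPKM in siRNA and 15.8 FPKM in OE, a ratio of 1.45. Its p was 0.0026 and its q 0.105 in the authors' deposited table, so that it missed even a q threshold of 0.1. A p this small or smaller was held by 612 tested genes, 2.47% of them. LIN28A (ENSG00000131914, chromosome 1, 26737269 to 26756213, hg19), the form known best from pluripotent cells, was at 1.16 FPKM in siRNA and 1.77 FPKM in OE. Its p was 0.0146 and its q 0.254 in the authors' deposited table. Per length of transcript, LIN28B was the predominant form in both conditions, at 19.7 times the LIN28A level in siRNA and 8.91 times in OE; the difference between these ratios was not tested. LIN28A stood with low values of other pluripotency genes: 8 of 14 such genes were under 1 FPKM in both conditions. None of the 7 tested was called, where 1.35% of all tested genes were. POU5F1 was at 2.75 FPKM in siRNA and 3.27 FPKM in OE, SOX2 at 3.79 FPKM in siRNA and 3.804 FPKM in OE, and DNMT3B at 6.96 FPKM in siRNA and 6.12 FPKM in OE. Reads of LIN28A could be divided with its pseudogene LIN28AP1, which was at 0.324 FPKM in siRNA and 0.350 FPKM in OE.

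The IGF2BP genes, whose proteins bind and stabilise mRNAs such as those of IGF2, MYC and ACTB through KH domains, were all well above the median level of coding genes, and none was called. IGF2BP1 (ENSG00000159217, chromosome 17, 47072628 to 47133012, hg19) was at 86.3 FPKM in siRNA and 85.2 FPKM in OE, and its p was 0.954 in the authors' deposited table. IGF2BP2 (ENSG00000073792, chromosome 3, 185361527 to 185542844, hg19) was at 71.4 FPKM in siRNA and 66.3 FPKM in OE, and its p was 0.789 in the authors' deposited table. IGF2BP3 (ENSG00000136231, chromosome 7, 23338358 to 23510086, hg19) was at 64.9 FPKM in siRNA and 45.6 FPKM in OE, a ratio of 1.42, close to that of LIN28B. Its p was 0.167 and its q 0.747 in the authors' deposited table, although its log2(FPKM + 1) change of 0.50 was nearly that of LIN28B, 0.51. The order IGF2BP1, IGF2BP2, IGF2BP3 was the same in both conditions, and no test between the 3 genes was possible without values per sample. Summed, they came to 222.6 FPKM in siRNA and 197.0 FPKM in OE. The locus printed for IGF2BP3 is also the one printed for the gene MALSU1. Whether the genes overlap was not checked, and how reads were assigned between them is not stated.

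**Figure D2:**
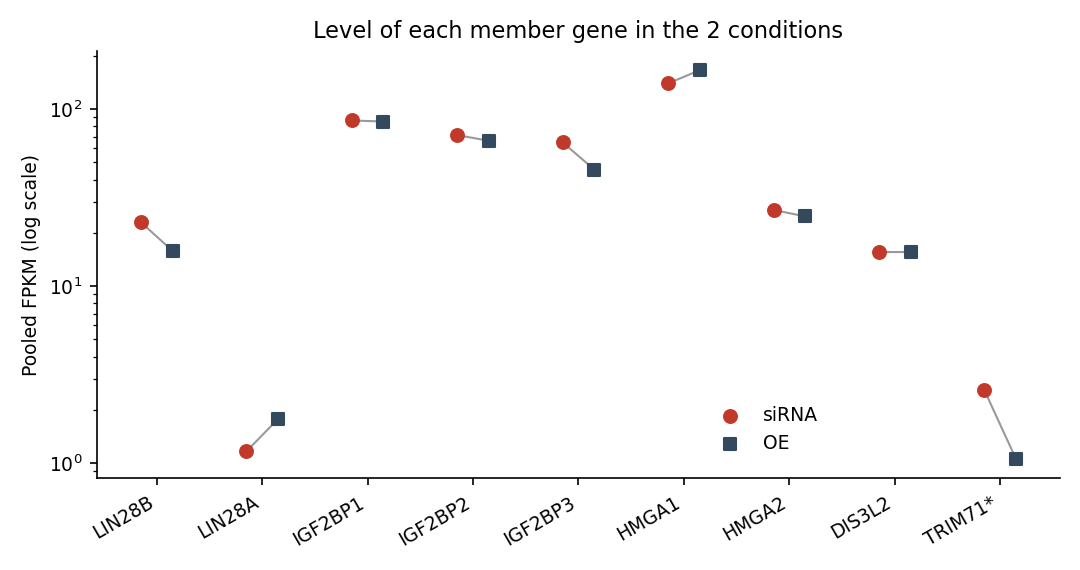
Pooled FPKM of each gene on a log axis, with siRNA as circles on the left and OE as squares on the right of each pair; each point is 1 value with no error, and the star marks the called gene. TRIM71 is at 2.58 FPKM in siRNA and 1.05 FPKM in OE, and HMGA1 is the highest gene in both conditions.

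The HMGA genes encode small proteins that bend AT-rich DNA through AT-hooks, and neither was called. HMGA1 (ENSG00000137309, chromosome 6, 34204650 to 34214008, hg19) was the highest of the 9 genes, at 139.8 FPKM in siRNA and 166.1 FPKM in OE, with p = 0.172 and q = 0.756 in the authors' deposited table. Also listed were 8 HMGA1 pseudogenes that summed to 7.18 FPKM in siRNA and 8.18 FPKM in OE, so that some reads could be divided among copies; none of the 3 tested was called. HMGA2 (ENSG00000149948, chromosome 12, 66151800 to 66360075, hg19), a classical let-7 target, was at 26.97 FPKM in siRNA and 24.8 FPKM in OE, with p = 0.593 in the authors' deposited table. RPSAP52, an antisense pseudogene listed at the HMGA2 locus, was at 0.144 FPKM in siRNA and 0.130 FPKM in OE. HMGA1 exceeded HMGA2 5.18 times in siRNA and 6.71 times in OE. Of 14 other high mobility group, linker and partner genes none was called, where 1.35% of all tested genes were. Their median log2(FPKM + 1) change was 0.02. The most abundant, HMGN2, was at 423 FPKM in siRNA and 446 FPKM in OE, HMGB2 was at 195.6 FPKM in siRNA and 194 FPKM in OE, and HMGN1 was at 157 FPKM in siRNA and 135 FPKM in OE.

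DIS3L2 (ENSG00000144535, chromosome 2, 232825955 to 233209060, hg19), the 3′ to 5′ exonuclease that degrades uridylated RNA, was at 15.58 FPKM in siRNA and 15.59 FPKM in OE. Its p was 0.997 in the authors' deposited table. Of 23 tested genes of let-7 processing, uridylation and RNA decay, 0 were called and 15 had a higher value in siRNA. Among expressed coding genes 53.0% had a higher value, and the direction count was not tested. The median GC content of the list was 45.2%, against 48.8% in expressed coding genes, and GC content is taken up below. With 1.35% of all tested genes called, a count of 0 in a list of this size is near the background and is no result about the list, and the same holds for the other lists with 0 calls. ZCCHC11, the main uridylating enzyme for pre-let-7, was at 108 FPKM in siRNA and 99.2 FPKM in OE. Its relative ZCCHC6 was at 14.2 FPKM in siRNA and 14.1 FPKM in OE. PAPD5, a noncanonical poly(A) polymerase chosen after its values were seen, came nearest to a call, at 10.7 FPKM in siRNA and 6.59 FPKM in OE and its q in the authors' deposited table was 0.0798. The 3 most abundant genes of the list were HNRNPA1, at 424 FPKM in siRNA and 407 FPKM in OE, KHSRP, at 195 FPKM in siRNA and 243 FPKM in OE, and DROSHA, at 165 FPKM in siRNA and 183 FPKM in OE.

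Set side by side, 6 of the 9 genes had a higher value in siRNA and 3 a lower one, and the median log2(FPKM + 1) change was 0.10. It was -0.01 over all tested genes and 0.03 over expressed coding genes, of which 53.0% had a higher value. The background moves with level, so each gene was set beside the 500 expressed coding genes nearest in mean FPKM. Against those, LIN28B, IGF2BP3 and TRIM71 lay above the median of their neighbours in level and the other 6 lay below it. For LIN28B 9.0% of the 500 were as far up, and for IGF2BP3 8.4%, against 0.6% for TRIM71. For HMGA1 14.0% were as far down, and for LIN28A 24.4%. Unadjusted p-values under 0.05 in the authors' deposited table were held by TRIM71, LIN28B and LIN28A, 3 of the 9, and by 10.9% of all tested genes. The 9 genes were chosen with earlier results of these data known, so this share is no result about them.

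**Figure D3:**
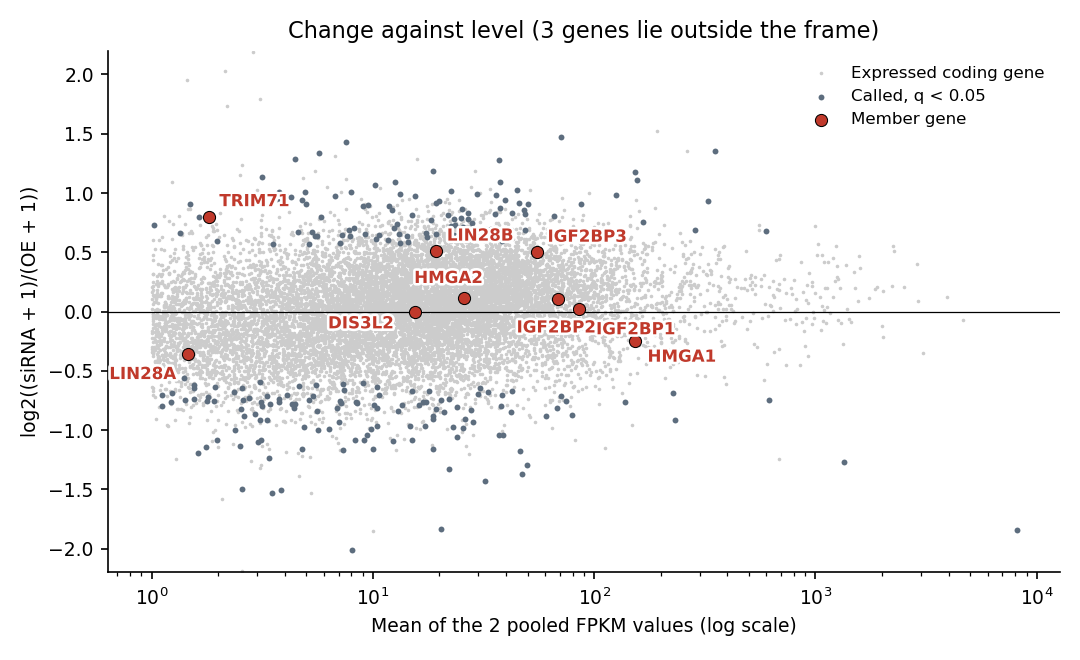
Change between conditions, log2((siRNA + 1)/(OE + 1)), against the mean of the 2 FPKM values on a log axis; grey points are expressed coding genes, dark points are those called, and red points are the 9 genes. TRIM71 lies at 0.80 near the low end of the level axis, and the other 8 lie between -0.36 and 0.51 among uncalled genes.

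Changes in these libraries run with the GC content of the transcript, and the 9 genes span much of that range. LIN28B had the lowest GC content of the 9, at 38.1%, and IGF2BP3 came next at 40.5%, while HMGA1 had the highest at 61.3%; the median of expressed coding genes was 48.8%. The 500 genes nearest in GC content had a median change of 0.27 at the GC content of LIN28B, 0.20 at that of IGF2BP3 and -0.17 at that of HMGA1. After subtraction of that median, 5 of the 9 genes lay within 0.1 of 0: IGF2BP1, IGF2BP2, HMGA1, HMGA2 and DIS3L2. LIN28B was left at 0.24, IGF2BP3 at 0.30 and LIN28A at -0.39. TRIM71, with a GC content of 47.4%, was left at 0.73, since genes like it in GC content had a median of 0.07. What part GC content has in these values was not tested further.

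**Figure D4:**
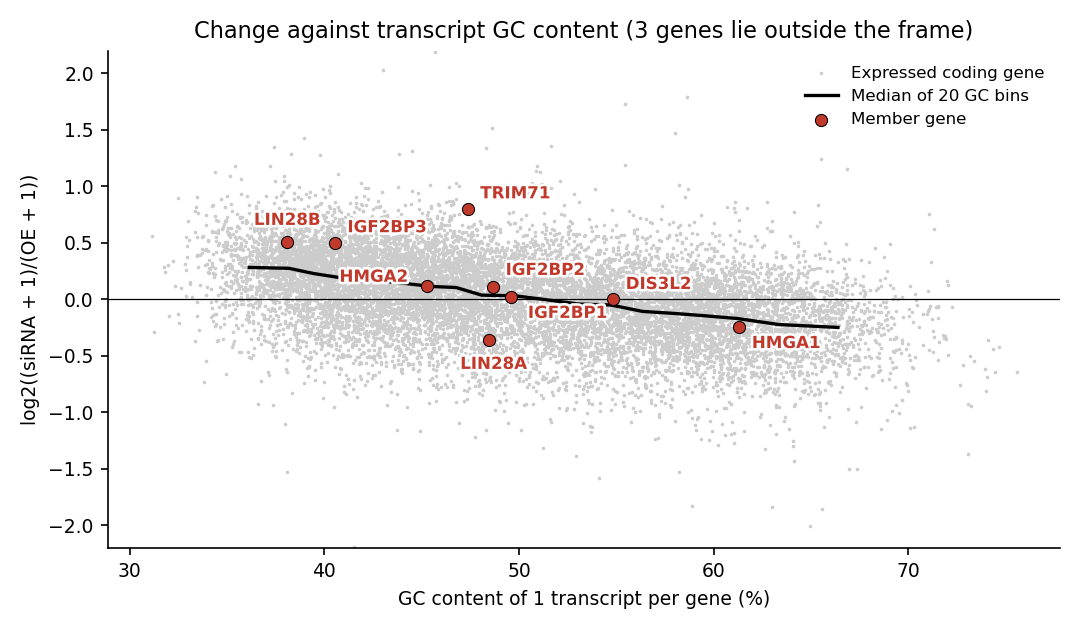
Change between conditions, log2((siRNA + 1)/(OE + 1)), against the GC content of 1 transcript per gene; grey points are expressed coding genes, the line joins medians of 20 bins with equal numbers of genes, and red points are the 9 genes. HMGA1, HMGA2, IGF2BP1, IGF2BP2 and DIS3L2 lie within 0.1 of the median at their GC content, LIN28B and IGF2BP3 lie 0.24 and 0.30 above it, TRIM71 lies 0.73 above it, and LIN28A lies at -0.39 from it.

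Other genes known as let-7 targets were then counted, with the 9 genes left out. Of 30 tested, 2 were called higher and 0 lower, 6.67% against 1.35% of all tested genes. A count of 2 is too few to set the list apart, and it was chosen with earlier results of these data known. Values were higher in siRNA for 24 of the 30, where 53.0% of expressed coding genes had a higher value. The median log2(FPKM + 1) change was 0.22, and their median GC content was 45.6%. Expressed coding genes nearest in GC content to HMGA2, at 45.3%, had a median change of 0.11. No test of the list was made. MYC, a growth transcription factor, was at 20.97 FPKM in siRNA and 10.2 FPKM in OE, with q = 0.00791 in the authors' deposited table. NRAS, a small GTPase of growth signalling, was at 35.5 FPKM in siRNA and 22.8 FPKM in OE, 1.56-fold higher, and its q in the authors' deposited table was 0.0177. PRTG, a receptor-like gene of the early embryo chosen after its values were seen, had a larger ratio, 2.22, at 14.9 FPKM in siRNA and 6.71 FPKM in OE, yet its q was 0.21 in the authors' deposited table. The 3 most abundant of the list were not called: RRM2, a ribonucleotide reductase subunit, was at 156 FPKM in siRNA and 173 FPKM in OE, AURKB, a mitotic kinase, at 126 FPKM in siRNA and 145 FPKM in OE, and DICER1, which cuts microRNA precursors, at 123 FPKM in siRNA and 77.7 FPKM in OE. MYC held 0 and NRAS 1 of the 7-base matches, and 21 of the 30 held at least 1.

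Expressed coding genes were then grouped by their number of let-7 matches. With 0 matches, 0.777% of 11713 genes were called higher and 0.965% lower; with 1 match, 0.712% of 1123 genes were called higher and 1.07% lower. With 2 matches, 0 of 109 were called higher and 1 lower. With 3 or more there were 27 genes, 4 of them among the 9 described here, and the 1 called higher, 3.70% of them, was TRIM71. The median change was 0.02 with 0 matches, 0.04 with 1, and 0.13 with 2 and with 3 or more. The median GC content was 49.2%, 46.9%, 45.0% and 45.8% in the same order, and against genes in the same of 20 GC bins these medians became 0.00, -0.02, 0.02 and 0.00. These groups were compared by counts and medians only, with no test, and those with 2 or more matches are too small to show a difference in calls or its absence.

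Genes around the IGF2BP proteins were counted next, again beside the 1.35% of all tested genes that were called. None of 20 proteins found with IGF2BP1 in cytoplasmic mRNA particles was called. A higher value in siRNA was held by 14, where 53.0% of expressed coding genes had a higher value. The median GC content of these 20 was 45.6%, against 48.8% in expressed coding genes, and the direction count was not tested. PABPC1, the poly(A)-binding protein, was at 1035 FPKM in siRNA and 893 FPKM in OE, MATR3 at 563 FPKM in siRNA and 472 FPKM in OE, and HNRNPU at 354 FPKM in siRNA and 285 FPKM in OE. YBX1, which is in this list and in that of other cold shock domain proteins, was at 364 FPKM in siRNA and 249 FPKM in OE with q = 0.118 in the authors' deposited table. Its paralog YBX3 was at 371 FPKM in siRNA and 355 FPKM in OE, and none of the 4 tested genes of that domain was called. Of 25 mRNAs known as bound by IGF2BP proteins, MYC was the 1 called, which is also too few to set the list apart. IGF2, the mRNA that names the family, was at 2.05 FPKM in siRNA and 3.40 FPKM in OE with q = 0.272 in the authors' deposited table, and H19, its imprinted noncoding neighbour, at 0.930 FPKM in siRNA and 1.497 FPKM in OE. The most abundant were EEF2, at 2685 FPKM in siRNA and 3430 FPKM in OE, ACTB, at 492 FPKM in siRNA and 519.7 FPKM in OE, and CCNG1, at 397 FPKM in siRNA and 364 FPKM in OE.

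None of 16 tested genes of insulin-like growth factor and insulin signalling was called, where 1.35% of all tested genes were. IRS4, the docking protein abundant in HEK293 cells, was at 346.5 FPKM in siRNA and 422.6 FPKM in OE, AKT2 was at 212 FPKM in siRNA and 204 FPKM in OE, and AKT1 at 101 FPKM in siRNA and 84.0 FPKM in OE. None of 14 tested oncofetal genes was called either, with a median log2(FPKM + 1) change of -0.09. MDK, a heparin-binding growth factor, was at 81.2 FPKM in siRNA and 89.2 FPKM in OE, SOX4 at 65.4 FPKM in siRNA and 64.1 FPKM in OE, and LGR5 at 12.1 FPKM in siRNA and 9.77 FPKM in OE. AFP, DLK1 and SOX11 were listed at 0 in both conditions.

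Relatives of the IGF2BP and TRIM71 proteins included 1 gene called in each direction. These were 2 of 17 tested genes for other KH-domain and TRIM-NHL proteins, against 1.35% of all tested genes, and a count this small was not tested. KHDRBS3, a splicing regulator with a KH domain, was at 60.4 FPKM in siRNA and 29.1 FPKM in OE, 2.08-fold higher, with q = 0.0134 in the authors' deposited table. KHDRBS1, its paralog, was at 42.3 FPKM in siRNA and 78.7 FPKM in OE, 1.86-fold lower, and its q in the authors' deposited table was 0.00791. The TRIM-NHL relatives of TRIM71 were not called: TRIM2 was at 17.7 FPKM in siRNA and 12.99 FPKM in OE, TRIM3 at 9.96 FPKM in siRNA and 9.62 FPKM in OE, and TRIM32 at 7.59 FPKM in siRNA and 7.67 FPKM in OE; these 3 were chosen after their values were seen. The most abundant KH-domain genes were PCBP2, at 416 FPKM in siRNA and 411 FPKM in OE, HDLBP, at 385.6 FPKM in siRNA and 380.4 FPKM in OE, and HNRNPK, at 229 FPKM in siRNA and 222 FPKM in OE. Over all 12 lists, which overlap, 169 distinct genes were tested outside the 9. Of these 2.96% were called, 4 higher and 1 lower, against 1.35% of all tested genes and 1.74% of expressed coding genes. The lists were chosen with earlier results of these data known, so this share is no result about them. Besides MYC, NRAS, KHDRBS3 and KHDRBS1, the called gene was the neurofilament gene NEFL of the HEK293 marker list, at 64.7 FPKM in siRNA and 35.9 FPKM in OE.

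**Figure D5:**
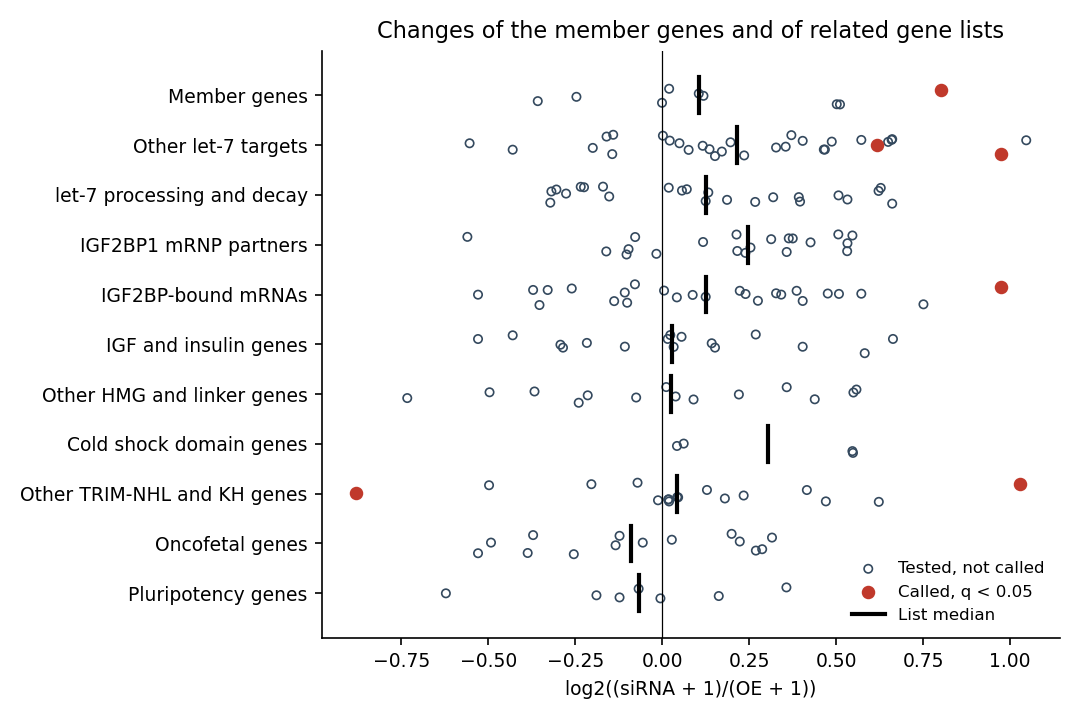
Change between conditions, log2((siRNA + 1)/(OE + 1)), of tested genes in the 9 genes (top row) and in 10 related lists; open circles were not called, filled red circles were called, and black bars are list medians, with vertical scatter for legibility only. The median is 0.10 for the 9 genes, 0.22 for other let-7 targets and -0.09 for oncofetal genes, and the 6 red points are 5 distinct genes, since MYC stands in 2 lists.

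The coding genes next to the 9 on their chromosomes were set beside them. Neighbours were taken outside the printed locus of each gene, so a gene that shares the locus, such as MALSU1 with IGF2BP3, was passed over. Of the 18 nearest tested coding genes found in this way, 1 on each side, 0 were called. A higher value in siRNA was held by 10, with changes from -0.56 to 0.65, where 53.0% of expressed coding genes had a higher value. With 1.35% of all tested genes called, 0 of 18 is near the background. CNOT10, before TRIM71, was at 67.2 FPKM in siRNA and 48.3 FPKM in OE, and CCR4, after it, at 1.195 FPKM in siRNA and 1.59 FPKM in OE. HACE1, before LIN28B, was at 33.1 FPKM in siRNA and 28.5 FPKM in OE, and POPDC3, after it, at 11.5 FPKM in siRNA and 6.92 FPKM in OE. By the distance between log2(FPKM + 1) values over the 2 conditions, the coding genes most like LIN28B were AGPS, AREL1 and CCNE2, at distances of 0.0145 to 0.0236, and those most like IGF2BP2 were RAD21, HIST1H2AG and ASUN, at 0.00657 to 0.0285. With 2 values per gene this measure says only that the levels were alike.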

How the data were processed

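RNA-seq libraries were directional and made from total RNA, per the labels' protocols. Per the submitters' processing notes, TopHat, Cufflinks, Cuffdiff and the hg19 build were used; of versions, settings, annotation and strand handling nothing is stated. The authors deposited 1 FPKM per gene and condition, and a p-value and q-value per gene; which of the 7 samples entered which condition is not stated. The deposited log2 column was not used, because some cells hold spreadsheet errors. Folds were recomputed from FPKM, with a pseudocount of 1 on the log2 scale. Starts count from 0 in the table and were printed after adding 1.

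Calls are tested genes with a q-value under 0.05 in the authors' deposited table. Expressed coding genes had a mean of at least 1 FPKM and a GENCODE 29 coding type, joined by gene ID. One transcript per gene (best APPRIS class, then CCDS, then length) gave GC content and 3′ UTR, and GENCODE and RefSeq positions are GRCh38, never mixed with hg19. The genes and the 12 lists were chosen with earlier results of these data known. Named list genes are those called and the 3 of highest mean FPKM, unless said otherwise; 1 of these is not reported here. Adjustment and GC matching were checked on simulated data. Values were computed in Python 3.11.15 with pandas 2.3.3 and numpy 2.4.6, and plotted with matplotlib 3.10.9.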

Additional observations from a re-analysis of the deposited data

How the results depend on the processing

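TRIM71 stayed called higher at a q-value under 0.01 and under 0.1, at a mean of at least 1 FPKM, with at least 1.5-fold between conditions and when p-values were adjusted anew over genes of at least 1 FPKM or over coding genes; at a mean of at least 10 FPKM, which leaves it out, 0 of the 9 genes were called. None was called lower in any of these. Over all genes, calls moved by construction to 70 higher and 87 lower at a q-value under 0.01, to 240 and 335 at 0.1, and to 78 and 71 where the mean FPKM was 10 or more. List genes called higher were 2 at a q-value under 0.01; called lower, 2 at 0.1 and with adjustment over coding genes. Pseudocounts, scaling and GC content were varied for each of the 9 genes: of 54 values 4 changed sign, all near 0. IGF2BP1 became -0.0428 scaled by the upper quartile and -0.00715 against genes of like GC content, and DIS3L2 became 0.0159 scaled by the median ratio and 0.0537 against genes of like GC content. The median change of the 9 stayed between 0.0425 and 0.122. Adjustment over coding genes and the median without TRIM71 (0.0622) were among alternatives chosen after seeing the data. No paired analysis was possible because values per sample were not at hand, and leaving out a replicate was not run for the same reason. Depth is unknown, so how far it limits low genes such as TRIM71 and LIN28A cannot be given.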

Other observations

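The table also lists 12 let-7 family microRNA genes, each as short as a hairpin. Of these 3 were tested and none was called, where 1.35% of all tested genes were. Listed at 0 in both conditions were 5 of the 12, and 4 were at 0 in 1 of them. MIRLET7G was at 64.7 FPKM in siRNA and 66.9 FPKM in OE, and MIRLET7E was listed at 0 in siRNA and at 83.9 FPKM in OE without a call. The other 3 listed at 0 in 1 condition went the opposite way: MIRLET7D was at 27.3 FPKM, MIRLET7F2 at 26.9 FPKM and MIRLET7A1 at 16.2 FPKM in siRNA, and all 3 were listed at 0 in OE. The 12 genes summed to 184.8 FPKM in siRNA and 174.0 FPKM in OE. These libraries were made from total RNA, and several of these genes share their locus with a longer transcript, so the values are not read as levels of mature let-7. MIRLET7DHG, a longer host transcript of the chromosome 9 cluster, was at 7.61 FPKM in siRNA and 6.65 FPKM in OE, not called.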
